A study of Mus musculus with 6 samples.

Results

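Cell division in the liver was followed here through 38 genes of the cell cycle and DNA replication, chosen by name and read from Affymetrix 3' expression arrays of 6 mouse livers. Of these 38 genes, 37 were read by at least 1 probe set carrying their symbol alone in the platform annotation, 90 probe sets in all, out of 18193 such genes and 45037 probe sets in the whole table. The annotation used here gave no probe set to the cyclin gene Ccnb1, which is not analysed here. Both groups were C57BL/6 mice that had received an AAV8 vector, a virus-derived carrier that reaches hepatocytes, into a vein, waited 4 weeks, and then ate CDAHFD for 4 weeks, a fat-rich diet that lacks choline and produces a fatty liver. The vector carried luciferase in the 3 AAV8-luciferase livers and Nfkbiz, the gene of the nuclear NF-κB cofactor IκBζ, in the 3 AAV8-Nfkbiz livers. All animals thus shared the virus, the diet and the saline perfusion before sampling, and no liver on a normal diet is part of the comparison. The sources used here do not give the promoter of the vector, the age and sex of the mice or the time of sampling. The labels number 3 arrays in each group and name no animals, so the p-values measure only the spread between these samples.

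The eukaryotic cell cycle runs in an order that the genes fall into. D-type cyclins with CDK4 and CDK6, then cyclin E with CDK2, release E2F factors in G1. E2F raises the genes for licensing origins and copying DNA, among them the MCM helicase subunits, PCNA and the enzymes of deoxynucleotide supply. FOXM1 and the MuvB complexes then raise the G2 and mitosis genes, whose products condense, align and separate the chromosomes. Adult hepatocytes are mostly quiescent and often polyploid, and they re-enter the cycle after injury, while resident and recruited non-parenchymal cells also divide. Whole liver RNA does not say which cells a transcript came from, and fewer cells of a type and less RNA per cell cannot be told apart.

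Words known from cell cycle promoters were looked up in those of the members as a description of their sequence, and no relation of these words to the expression values was tested. RefSeq promoters (GRCm38.p6) were found for 31 of the 38 genes, and the 250 bases before the start were searched on both strands. The words were 4 forms of the E2F site (TTTCCCGC, TTTGGCGC, TTTCGCGC and TTTGCCGC), 2 forms of the cell cycle homology region CHR (TTTGAA and TTCGAA), through which MuvB complexes act, and the CCAAT box (CCAAT), the NF-Y site. E2F words on opposite strands can overlap, as they do in Mcm6. Among all 32851 promoters of the table, 1.86% held an E2F word, 17.1% a CHR word, 33.9% a CCAAT word and 6.02% both a CHR and a CCAAT word. Of 14 promoters of G2 and mitosis genes, 1 held an E2F word, 12 a CCAAT word and 6 both CHR and CCAAT. Of 6 promoters of Mcm2 to Mcm7 (Mcm4 is not in the table and Mcm7 has more than 1), 3 held an E2F word, 6 a CCAAT word and 2 both CHR and CCAAT. Shown are the MCM genes Mcm6 and Mcm3 and the mitotic genes Ccnb2 and Cdk1, picked after their matches were seen as examples of both classes. They lie at chr1:128359706-128359955, chr1:20820313-20820562, chr9:70421555-70421804 and chr10:69352913-69353162, all on the minus strand, and are written 5′ to 3′ with the matched words in capitals.
Mcm6: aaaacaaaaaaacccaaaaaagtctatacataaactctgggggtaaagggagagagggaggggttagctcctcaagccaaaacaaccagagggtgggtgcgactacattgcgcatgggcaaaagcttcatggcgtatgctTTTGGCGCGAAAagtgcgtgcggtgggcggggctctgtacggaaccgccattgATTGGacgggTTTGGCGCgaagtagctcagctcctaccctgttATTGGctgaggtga
Mcm3: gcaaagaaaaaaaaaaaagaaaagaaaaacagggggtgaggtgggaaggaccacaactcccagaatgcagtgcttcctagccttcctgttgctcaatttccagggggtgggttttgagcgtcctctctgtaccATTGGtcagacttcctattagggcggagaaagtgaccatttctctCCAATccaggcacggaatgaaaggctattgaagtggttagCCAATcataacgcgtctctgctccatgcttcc
Ccnb2: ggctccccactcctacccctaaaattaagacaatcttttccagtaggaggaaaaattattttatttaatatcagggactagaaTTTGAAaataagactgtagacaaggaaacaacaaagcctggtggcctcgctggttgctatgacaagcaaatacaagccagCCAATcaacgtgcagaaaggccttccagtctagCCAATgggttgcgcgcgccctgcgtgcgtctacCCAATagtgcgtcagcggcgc
Cdk1: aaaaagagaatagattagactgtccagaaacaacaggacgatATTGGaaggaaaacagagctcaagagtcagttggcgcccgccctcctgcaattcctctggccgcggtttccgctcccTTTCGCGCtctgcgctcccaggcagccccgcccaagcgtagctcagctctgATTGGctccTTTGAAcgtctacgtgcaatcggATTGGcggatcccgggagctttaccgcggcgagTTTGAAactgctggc
Mcm6 held 3 E2F and 2 CCAAT matches, and Mcm3 held 3 CCAAT matches and no E2F or CHR word in this window. Ccnb2 held 1 CHR and 3 CCAAT matches, and Cdk1 held 1 E2F, 2 CHR and 3 CCAAT matches. A match is a description of the letters and not a bound site.

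Values are MAS5 intensities on a linear scale, each gene is represented by its brightest probe set, and a difference is the mean log2 intensity of the AAV8-Nfkbiz group minus that of the AAV8-luciferase group. Median intensities of the arrays were between 78.2 and 95.2. On the second principal component of all tested genes the third luciferase array lay at -45.1 and the other 5 between 3.11 and 21.1, and results are given without that array where they turn on it. Of the 3 Nfkbiz probe sets, 1448728_a_at read 221, 230 and 180 in the luciferase livers and 4424, 4073 and 2006 in the Nfkbiz livers. Its difference was 3.98 ± 0.27 in log2 (SE, limma adjusted p = 0.00079 over 23311 probe sets). The others did not follow it, and the groups overlapped on both. The brightest by mean log2 intensity, 1417483_at, had a difference of 0.30 ± 0.19 (limma adjusted p = 0.6). The probe set 1457404_at had one of -0.89 ± 0.54 (limma adjusted p = 0.593). The hepatocyte markers had similar sums in both groups (291808 to 335140 in luciferase and 288131 to 329230 in Nfkbiz livers, 9 of 10 listed genes tested). Of the 9, 6 had positive and 3 negative differences, with a median of 0.03. The tyrosine aminotransferase gene Tat, the 1 that passed after adjustment, fell (-1.17 ± 0.16, limma adjusted p = 0.0218).

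No cell cycle gene passed the test. Of the 37 genes with a probe set, 34 were bright enough to be tested, and 0 of the 34 reached a limma adjusted p below 0.05, against 30 of 13312 genes in the whole table (0.225%). At an unadjusted p below 0.05 there were 5, 4 lower and 1 higher in the Nfkbiz livers, or 14.7% of the members against 12% of all genes, a share near the background. Split by direction, 7% of all genes were lower and 5.03% higher at such a p. The groups did not overlap for 0 of the 34 genes, whereas over all genes 10% lay wholly lower and 8% wholly higher in the Nfkbiz livers. The median difference over the 34 genes was -0.03, beside -0.02 over all genes tested, and single genes lay between -1.32 for Foxm1 and 0.80 for Plk1. The classes differed in sign. All 9 G1 genes and all 6 MCM genes had negative differences, and 13 of the 15 tested G2 and mitosis genes had positive ones, where 52.2% of all genes were below 0 and 47.8% above. The positive G2 and mitosis genes numbered 8 of 15 without the second luciferase liver, 9 without the third Nfkbiz liver, 12 without the second and 13 when any other liver was left out. Genes of a class share regulators and libraries, so these counts are descriptions and not tests.

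**Figure D1:**
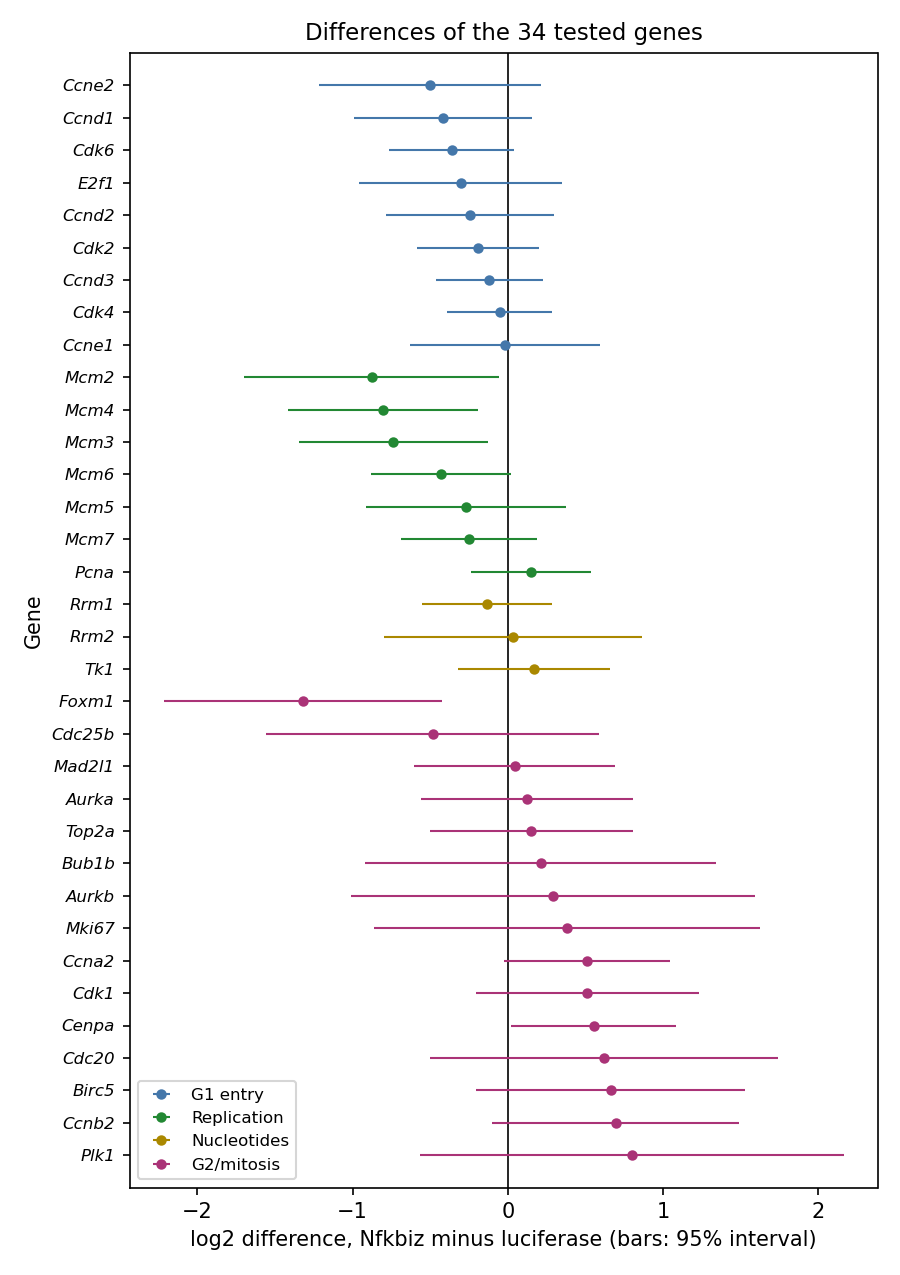
Log2 difference between the AAV8-Nfkbiz and AAV8-luciferase livers (x axis) for each of the 34 tested cell cycle genes (y axis), coloured by role; points are limma estimates and bars their 95% intervals, 3 arrays per group. The G1 and MCM genes lie left of 0 and most G2 and mitosis genes right of it, and nearly every interval includes 0; the exceptions are Foxm1, Mcm2, Mcm3, Mcm4 and Cenpa, with no allowance for multiple testing.

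Genes of G1 entry had small negative differences, from -0.50 for Ccne2 to -0.02 for Ccne1, with a class median of -0.24. Cyclin D1, the main D-type cyclin of regenerating liver, is encoded by Ccnd1. Ccnd1 read 6858, 4289 and 6395 in the luciferase livers and 3998, 3090 and 6399.7 in the Nfkbiz livers. The first and second Nfkbiz livers lay below every luciferase liver, and the third reached the level of the higher ones. Its difference was -0.42 ± 0.26 (SE, 95% interval -0.99 to 0.16, limma adjusted p = 0.56). Leaving out 1 liver moved it between -0.18 without the second and -0.70 without the third Nfkbiz liver, with -0.63 without the second luciferase liver. The other probe sets of Ccnd1 had differences of -0.63 and -0.38.

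Cdk6, the gene of a kinase partner of the D-type cyclins, read 1359, 1041 and 964 in the luciferase and 900.4, 709 and 1006 in the Nfkbiz livers. The groups overlapped through the third Nfkbiz liver, which exceeded the third luciferase liver. Cdk6 had a difference of -0.36 ± 0.18 (limma adjusted p = 0.461), and its other probe sets had differences of -0.37 and -0.29. Without the first luciferase liver it was -0.21 and without the second Nfkbiz liver -0.22. The rest of the class were closer to 0 or noisier. Ccne2, a cyclin E gene, was at -0.50 ± 0.32, E2f1, the activating E2F factor, at -0.30 ± 0.29, Ccnd2 at -0.24 ± 0.24 and Cdk2 at -0.19 ± 0.18. Ccnd3 (-0.12), Cdk4 (-0.05) and Ccne1 (-0.02) differed least. For Ccne1 the first luciferase liver read 398, above the 198 to 280 of the other 5 livers. After quantile or loess normalization or median centring 8 of the 9 genes stayed below 0, and with the mean of a gene's probe sets 7 of 9. There were 7 of 9 without the first luciferase or the third Nfkbiz liver, and 8 without the second Nfkbiz liver.

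The MCM genes, which encode the ring-shaped helicase loaded at replication origins, had a median difference of -0.58 over Mcm2 to Mcm7. Mcm4 read 780, 369 and 492 in the luciferase livers and 267, 256 and 389 in the Nfkbiz livers. The second luciferase liver lay within the Nfkbiz range and the others above it. The difference of Mcm4 was -0.80 ± 0.28 (95% interval -1.42 to -0.19), a 0.573-fold level, and its limma adjusted p was 0.292. Without the first luciferase liver, the highest, it was -0.51.

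Mcm3 read 501, 259 and 491 against 204, 228 and 296, with a difference of -0.74 ± 0.27 (limma adjusted p = 0.328). Mcm2 read 999.5, 481 and 1599.9 against 658, 383 and 492, with a difference of -0.88 ± 0.37 (limma adjusted p = 0.383). In both genes the second luciferase liver was as low as the Nfkbiz livers, and without it the Mcm2 difference was -1.34 (limma adjusted p = 0.162). Without the third luciferase liver, where Mcm2 was highest, the Mcm2 difference was -0.48. Mcm6 read 879, 574 and 678 against 421, 539 and 616 (-0.43 ± 0.20, limma adjusted p = 0.438). Here the third Nfkbiz liver lay above the second luciferase liver, and the difference was -0.27 without the first luciferase and -0.28 without the first Nfkbiz liver. Mcm5 (-0.27 ± 0.29) and Mcm7 (-0.25 ± 0.20) were nearest to 0.

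The second luciferase liver was the lowest luciferase liver for 6 of 6 MCM genes, and for 4443 of all 13312 genes tested. None of the 6 MCM genes had its highest value in a Nfkbiz liver. Relative to the luciferase mean, the median MCM gene stood at 0.32, -0.54 and 0.18 in the luciferase and at -0.77, -0.59 and -0.30 in the Nfkbiz livers. The second luciferase liver thus sat among the Nfkbiz livers. The 6 genes stayed negative under every normalization tried and with the mean of probe sets, where the class median was -0.20. With the most variable probe set 3 of the 4 then tested were negative, and 5 of 6 without the first Nfkbiz liver. The median ran from -0.81 without the second to -0.39 without the first luciferase liver. Without the third luciferase liver, which stood apart over all genes, it was -0.46.

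**Figure D2:**
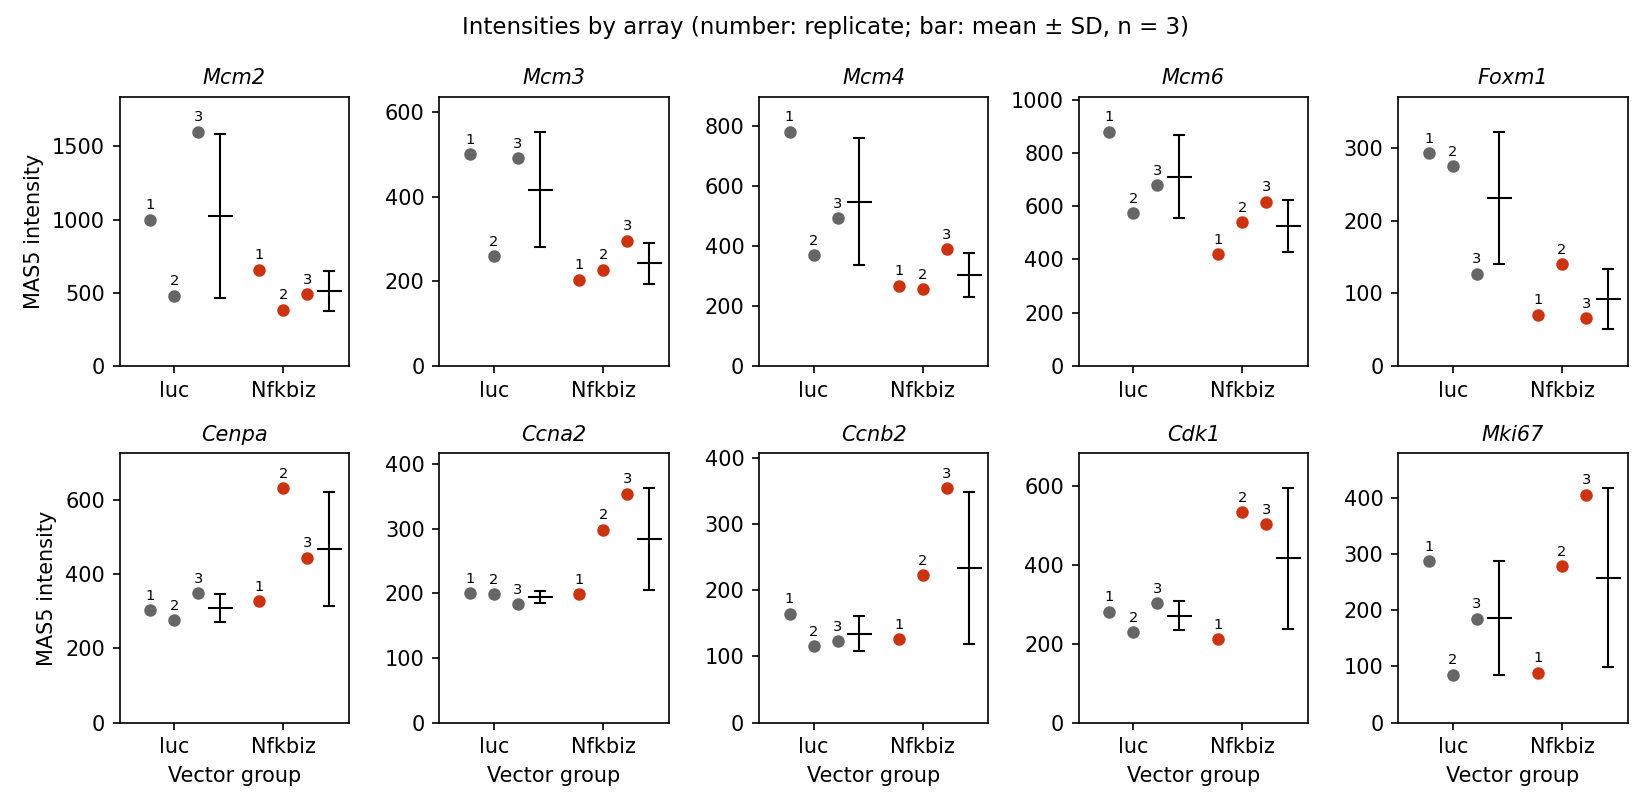
MAS5 intensity (y axis, from 0) of 10 genes in the AAV8-luciferase (grey) and AAV8-Nfkbiz (red) livers, with the replicate number over each point and the mean ± SD of 3 arrays beside it. In the upper row, 4 MCM genes and Foxm1, the Nfkbiz livers sit low but overlap with the lowest luciferase liver. In the lower row the second and the third Nfkbiz livers sit high, though for Mki67 the first luciferase liver exceeds the second Nfkbiz liver. The first Nfkbiz liver lies with the luciferase livers there, or below them for Cdk1.

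Probe sets of an MCM gene did not always go the same way. Mcm3 had 5 tested probe sets. The probe set 1449705_x_at read 471, 217 and 405 in the luciferase and 146, 176 and 216 in the Nfkbiz livers, without overlap and with a difference of -0.96 ± 0.30 (limma adjusted p = 0.3 over the probe sets). The probe sets 1420029_at and 1426653_at had differences of 0.24 ± 0.39 and 0.64 ± 0.69. The second of these included a low reading of 20.9 in the third luciferase liver, beside 199.8 and 129 in the others. The Mcm3 value turned to 0.64 when the most variable probe set stood for the gene. Mcm7 had probe sets at -0.32, -0.25, -0.11 and 0.34, while both probe sets of Mcm2, Mcm4, Mcm5 and Mcm6 were negative. Over all members 66 of the 90 probe sets were tested, 38 with a negative and 28 with a positive difference, where 53% of all probe sets were negative. None of the 66 passed after adjustment, where 0.12% of all probe sets did, and 7 had an unadjusted p below 0.05, 6 of them lower, against 10.7% of all probe sets in either direction. In 14 of the 19 genes with at least 2 tested probe sets, all of them had the same sign.

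**Figure D3:**
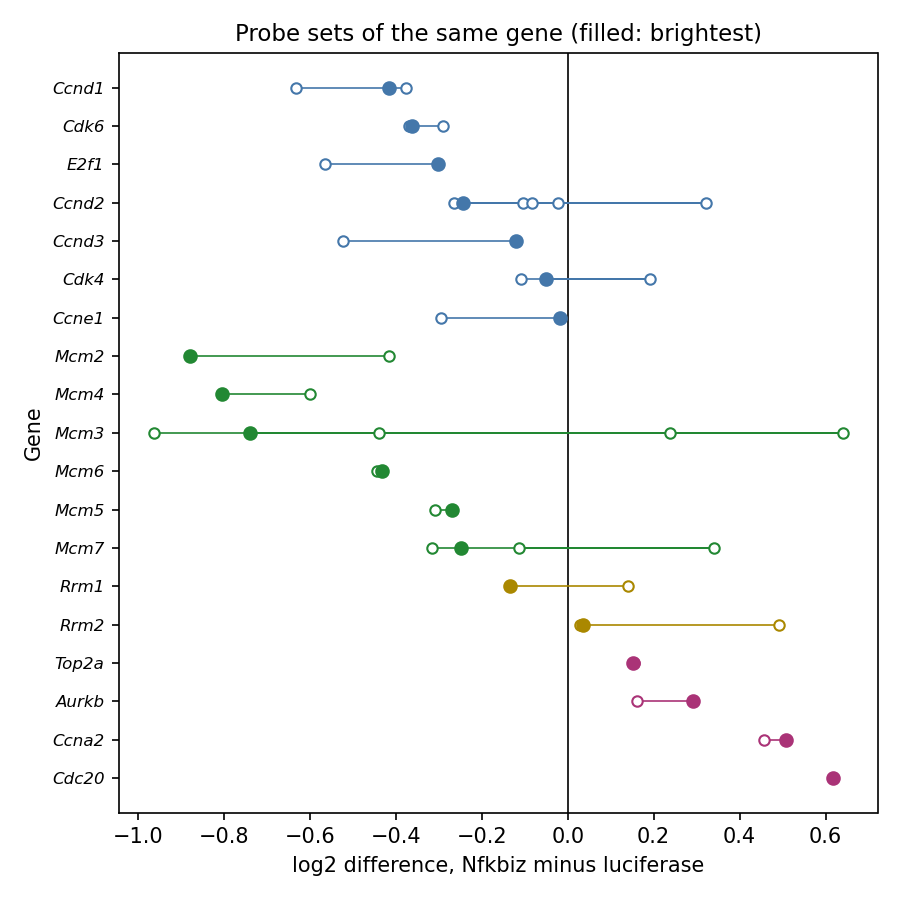
Log2 difference between AAV8-Nfkbiz and AAV8-luciferase livers (x axis) for each tested probe set of the 19 genes with at least 2 of them (y axis), coloured by role as in the plot of differences, with the brightest probe set filled. Most genes keep 1 sign across their probe sets, while Mcm3 spans from -0.96 to 0.64.

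The other replication and nucleotide genes showed no class shift. Pcna, the sliding clamp of the polymerases, read 4476, 4030 and 3016 in the luciferase and 3599, 4971 and 4161 in the Nfkbiz livers, fully interleaved (0.15 ± 0.17, 95% interval -0.24 to 0.54, limma adjusted p = 0.776), and had a difference of -0.01 without the third luciferase liver. Rrm2, the regulated subunit of ribonucleotide reductase, read 747, 687 and 1094 against 411, 1156 and 1273. The first Nfkbiz liver was the lowest of the 6 and the others of its group the highest, and the difference was 0.04 ± 0.37 (95% interval -0.80 to 0.87, limma adjusted p = 0.982). It was 0.56 without the first Nfkbiz liver and as low as -0.26 without the third. The constitutive subunit gene Rrm1 had a difference of -0.13, and of 0.14 on its other tested probe set. Its probe set 1440073_at was too dim to be tested and read 3.17, 1.38 and 1.36 against 39.5, 32.9 and 12.2. With the mean of probe sets Rrm1 had the smallest limma adjusted p of the members, 0.223. The thymidine kinase gene Tk1 had a difference of 0.17, its Nfkbiz livers spreading from 481 to 934 around luciferase livers at 600.2 to 618.

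Among the G2 and mitosis genes Foxm1, the transcription factor that drives this class, and Cdc25b, a phosphatase that activates CDK1, were the 2 with negative differences. Foxm1 read 293, 275 and 127 in the luciferase and 70.8, 140.2 and 66.1 in the Nfkbiz livers. The third luciferase liver and the second Nfkbiz liver overlapped. Foxm1 had the lowest difference and the smallest p of all members, -1.32 ± 0.40 (95% interval -2.22 to -0.42), a 0.4-fold level, with a limma adjusted p of 0.244. Leaving out 1 liver moved it between -1.71 without the third and -1.11 without the first luciferase liver, and it passed in none of the alternatives. It rests on 1 of 4 Foxm1 probe sets, 1448833_at, since the other 3 were too dim to be tested and read between 4.88 and 72.2. One of these, 1437138_at, had the opposite direction, at 25.3, 19.8 and 19.4 against 32.9, 63.1 and 34.8. With the mean of its probe sets Foxm1 was not bright enough to be tested.

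Cenpa, the gene of the histone H3 variant of centromeres, read 303, 275 and 349 in the luciferase and 327, 632 and 445 in the Nfkbiz livers (0.55 ± 0.24, 95% interval 0.02 to 1.08, limma adjusted p = 0.391). Ccna2, the cyclin A gene of S phase and G2, read 201, 199 and 183 against 199, 299 and 355 (0.51 ± 0.24, limma adjusted p = 0.44). In both genes the second and the third Nfkbiz livers were above every luciferase liver, and the first was not. The Cenpa difference was 0.31 without the second Nfkbiz liver, and that of Ccna2 was 0.33 without the third and 0.78 without the first Nfkbiz liver.

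Ccnb2, a B-type cyclin gene whose promoter is printed above, read 164, 115 and 123 against 126, 222 and 354 (0.69 ± 0.36, limma adjusted p = 0.475). Cdk1, the mitotic kinase, read 281, 230 and 302 against 211, 534 and 503 (0.51 ± 0.32, limma adjusted p = 0.565). Birc5, the survivin gene of the chromosomal passenger complex, read 219, 99.1 and 173 against 139, 328 and 329 (0.66 ± 0.39, limma adjusted p = 0.532). These 3 genes again had 2 high Nfkbiz livers and a first Nfkbiz liver within the luciferase range or below it. Without that first liver the differences were 1.08 for Ccnb2, 0.94 for Cdk1 and 1.08 for Birc5. Ccnb2 was at 0.33 without the third Nfkbiz liver, Cdk1 at 0.28 without the second and 0.32 without the third, and Birc5 at 0.34 without the second luciferase liver.

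Mki67, the gene of the proliferation antigen Ki-67, read 288, 85.4 and 185 in the luciferase and 88.8, 279 and 406 in the Nfkbiz livers. Luciferase livers alone spanned from 85.4 to 288, and the difference was 0.38 ± 0.56 (95% interval -0.86 to 1.63, limma adjusted p = 0.829). Top2a, the gene of the topoisomerase that untangles sister chromatids, read 298, 194 and 253 against 171, 335 and 349 (0.15 ± 0.29, limma adjusted p = 0.874). Without the second luciferase or the third Nfkbiz liver both differences turned negative, to between -0.10 and -0.01, and without the first Nfkbiz liver they were 1.02 and 0.48. The interval of Mki67 includes both a doubling and a decrease.

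The remaining members of the class had wide errors. Plk1, the polo-like kinase gene, had the highest difference, 0.80 ± 0.61, with luciferase livers at 183, 31.9 and 67.7 and Nfkbiz livers at 68.6, 159 and 190.2. Cdc20, the activator of the anaphase-promoting complex, was at 0.62 on both of its tested probe sets. Its remaining probe set, 1439394_x_at, was too dim to be tested and had the opposite direction. It read 106.5, 61.6 and 48.6 against 16.6, 31.4 and 53.4. The Aurora kinase genes Aurkb and Aurka were at 0.29 and 0.12, and the spindle checkpoint genes Bub1b and Mad2l1 at 0.21 and 0.04. Cdc25b was at -0.48 ± 0.48.

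Across the class the livers of a group varied widely. Relative to the luciferase mean, the median of the 15 genes stood at 0.32, -0.36 and 0.14 in the luciferase and at -0.25, 0.74 and 0.77 in the Nfkbiz livers. Leaving aside Foxm1, the first Nfkbiz liver was the lowest of its group for 12 of 14 genes. The second luciferase liver was the lowest of its group for 13 of 14. With Foxm1 the counts were 12 and 13 of 15. Over all genes tested, these livers were the lowest of their groups for 3999 and 4443 of 13312. The class median difference was 0.38 with all livers, 0.79 without the first and 0.05 without the third Nfkbiz liver, and 0.03 without the second and 0.47 without the third luciferase liver. At an unadjusted limma p below 0.05, 1 of the 15 was higher with all livers and 7 without the first Nfkbiz liver. In the fit without that liver 9.38% of all genes had such a p in either direction. There 0 of the 15 passed after adjustment. Without the first, the second and the third luciferase liver the count was 2, 0 and 1. It was 0 without the second or the third Nfkbiz liver.

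**Figure D4:**
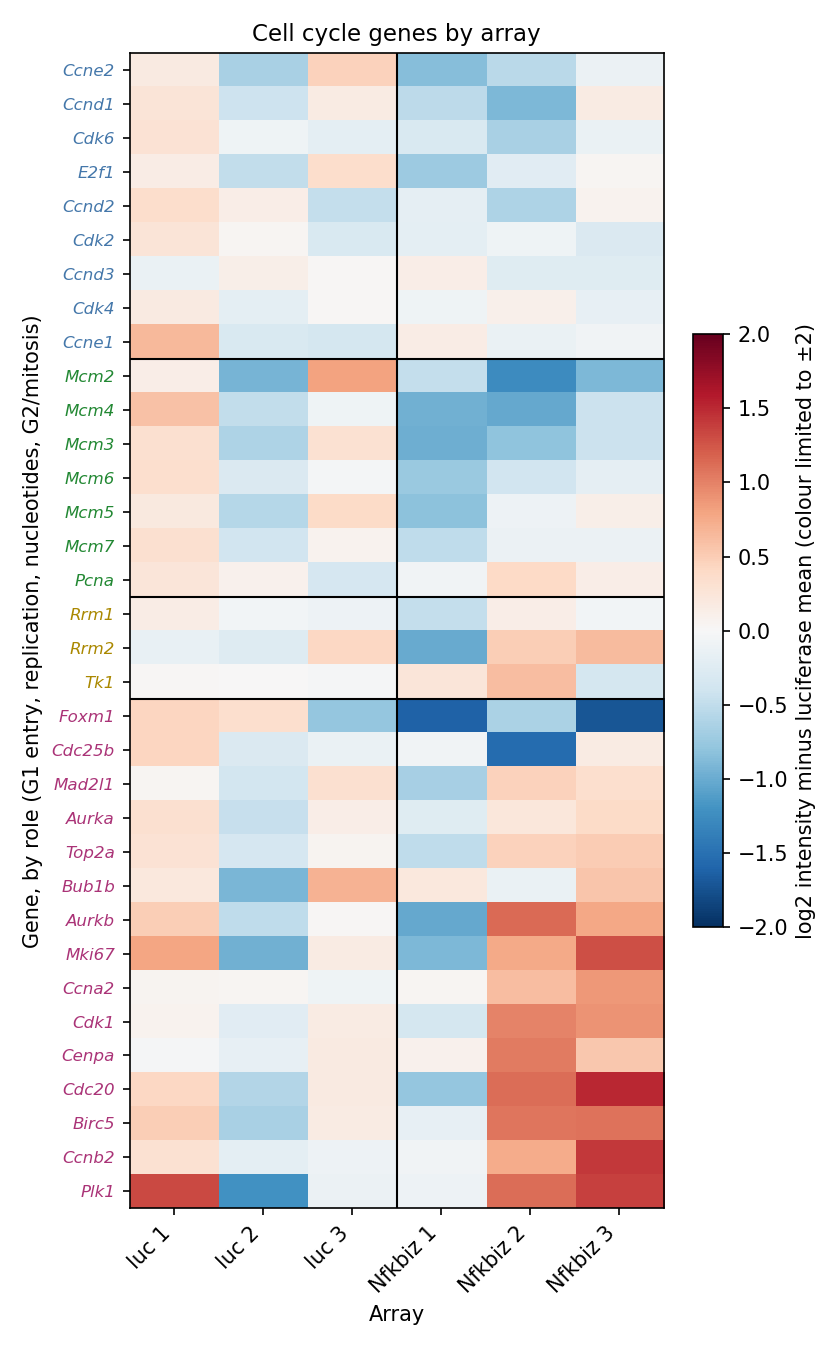
Log2 intensity minus the mean of the AAV8-luciferase livers (colour, limited to ±2) for the 34 tested genes (rows, grouped by role) on each of the 6 arrays (columns; luc, luciferase). Within G2 and mitosis the first luciferase and the second and the third Nfkbiz livers are mostly red. The second luciferase and first Nfkbiz livers are mostly blue there. The MCM rows are blue in the second luciferase liver and in the Nfkbiz livers, apart from Mcm5 in the third Nfkbiz liver.

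Cdc6, Tyms and Bub1 lay below the intensity filter of 47.4 on the mean log2 scale and were not tested. The licensing factor gene Cdc6 read 92.4, 21.5 and 71.3 in the luciferase and 30.7, 36.9 and 36.8 in the Nfkbiz livers. The checkpoint kinase gene Bub1 read 19.6, 3.19 and 39.5 against 8.12, 64.7 and 94.2 on its brightest probe set, with the first Nfkbiz liver again low. Its other probe set, 1438571_at, read 59.5, 1.56 and 26.0 against 56.3, 6.65 and 13.8. On that one the first Nfkbiz liver was the highest of its group. The thymidylate synthase gene Tyms lay between 6.25 and 64.5. Just above the filter were Bub1b, between 31.2 and 95.1, and Aurkb, between 31.2 and 140.1, and their errors of 0.51 and 0.58 are among the largest.

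Other genes of the same processes, listed by function but with earlier results of these data known, also gave no call. Of 39 tested replication genes outside the members 0 passed, 18 had positive and 21 negative differences, and the median was -0.05. The origin recognition subunit gene Orc4 read 552, 575 and 560.1 against 746, 885 and 751, without overlap (0.49 ± 0.14, limma adjusted p = 0.219). The primase gene Prim1 (0.63 ± 0.25) and the CMG helicase component gene Gins2 (0.76 ± 0.33) also had positive differences. Timeless, a fork protection gene, had one of -0.97 ± 0.43. The named genes of the replication machinery outside the MCM ring thus had differences of both signs, and the contrast with the MCM genes was not tested.

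Of 34 tested mitosis genes outside the members 0 passed, and 24 were positive with a median of 0.17. Anln, the gene of the cytokinesis protein anillin, had a difference of 0.72 ± 0.33. Spag5, a spindle gene, was at 1.09 ± 0.57 without overlap, and Cenpk, a kinetochore gene, at -0.50 ± 0.27. Cks1b, a CDK-binding subunit gene, was at -0.59 ± 0.25 (limma adjusted p = 0.383, the smallest of the list). Relative to the luciferase mean the median gene of this list stood at 0.23, -0.23 and 0.10 in the luciferase and at -0.27, 0.31 and 0.64 in the Nfkbiz livers. The first Nfkbiz and the second luciferase livers were the low ones here as among the members.

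Inhibitors and regulators were likewise without a call. Among 14 tested inhibitor genes 0 passed (median -0.06). Wee1, the kinase that holds CDK1 inactive, read 1059, 897 and 1249.9 against 608, 594 and 919, overlapping only between the second luciferase and the third Nfkbiz liver (-0.61 ± 0.20, limma adjusted p = 0.271). Its relative Pkmyt1 had a difference of -0.98 ± 0.55 and the CDK4 and CDK6 inhibitor gene Cdkn2b of 0.98 ± 0.51. The retinoblastoma gene Rb1 was at 0.26 ± 0.15 without overlap. Among 16 tested E2F, DREAM and MYC genes 0 passed (median 0.01). Mycn read 169, 195 and 173 against 94.0, 104 and 49.99, without overlap (-1.18 ± 0.33, limma adjusted p = 0.214). E2f6, a repressor of the family, was at -0.34 ± 0.17 without overlap, E2f8, an atypical repressor linked to hepatocyte polyploidy, at 0.50 ± 0.29, and the MuvB subunit gene Lin52 at -1.34 ± 0.65.

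Markers of cells that could contribute dividing cells differed between the groups and between arrays. No probe set of the table was listed at 0. The 14 macrophage and Kupffer cell markers summed to between 43426 and 59315 in the luciferase and between 64209 and 82628 in the Nfkbiz livers. Of the 14, 13 were positive and 0 passed, with a smallest limma adjusted p of 0.092. At an unadjusted limma p below 0.05, 11 of the 14 were higher, against 5.03% of all genes. The groups did not overlap for 9 of the 14, all higher, against 8% of all genes. The 11 tested T and NK cell markers of 15 listed summed to between 1583 and 1786 and between 2063 and 3666, and Gzma rose (1.77 ± 0.28, limma adjusted p = 0.0427), the 1 that passed. The B and plasma cell markers (7 of 8 tested) summed to between 806 and 1137 and between 1011 and 1361, and the neutrophil markers (6 of 10) to between 1122 and 1598 and between 1366 and 2957. The endothelial (9 of 9), stellate (9 of 9), cholangiocyte (3 of 7) and erythroid (3 of 9) sums overlapped between the groups. Relative to the luciferase mean, the median macrophage marker stood at 0.71, 0.72 and 0.47 and the median T and NK marker at 1.10, 0.16 and 0.63 in the first, the second and the third Nfkbiz liver. The median stellate marker stood at 0.41, -0.04 and -0.40 in the luciferase and at -0.39, -0.29 and -0.04 in the Nfkbiz livers, and the median cholangiocyte marker at 0.25, -0.05 and -0.25 and at -0.59, -0.69 and -0.05. Every Nfkbiz liver was therefore above the luciferase mean in the median macrophage and the median T and NK marker. Each was also below it in the median stellate and the median cholangiocyte marker. The first Nfkbiz liver, low in mitosis genes, shared these directions with the second and the third, while the sizes varied. Its median B and plasma marker stood at 0.91, beside 0.18 and 0.08 in the second and the third. Its median neutrophil marker stood at 0.37, beside 0.11 and 0.19. The part of these markers in the cell cycle values was not tested.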

How the data were processed

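The authors deposited a table of MAS5 intensities, linear and with 1 column per array. Each array is called a liver here, though the labels name no animals. The method's name comes from the submitters' processing notes; its version was not given in these sources. The mean of the middle 96% of each array's intensities lay between 495.4 and 496.5, so the arrays had been scaled to 1 target. Of 45037 probe sets, 34945 had 1 gene symbol in the GEO platform annotation, 932 had several and 9160 were not listed and stay unnamed here. Intensities were log2-transformed without a pseudocount. Each gene took its probe set with the highest mean, genes among the lowest 40% of probe sets were left out, and 13312 genes were fitted with limma 3.58.1 (lmFit; eBayes with its variance prior following intensity) under R 4.3.3, two-sided, Benjamini-Hochberg adjusted, threshold 0.05. All 23311 single-symbol probe sets above the filter were fitted likewise. Errors of differences are limma's moderated SE. The fit was tested on simulated data. Figures were drawn with matplotlib 3.10.9.

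The members and lists were chosen with earlier results of these data known. Values are given in full for the 10 tested members with the smallest p and for Mki67, Top2a, Cdk1, Ccnd1, Pcna, Mcm2, Mcm6 and Rrm2, and up to 4 genes of each further pathway list are named by p. Other genes named, the grouping of Mcm2 to Mcm7 and the omission of Foxm1 from some counts were chosen after values were seen. The number of arrays limits the precision, and an exact permutation test of 3 against 3 could not go below p = 0.1. The alternatives covered normalization, an offset, the filter, the choice of probe set, the variance prior, array weights, the replicate number and each array left out.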

Additional observations from a re-analysis of the deposited data

How the results depend on the processing

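No alternative gave a call: the count of members and of member probe sets past the adjusted threshold was 0 in limma under every alternative run (the probe set count does not apply to the alternatives that choose or average probe sets). The count of members at an unadjusted p below 0.05, 5 with the settings reported, was 3 with the mean of probe sets, 2 with the most variable probe set, 3 without the variance trend and 3 with array weights. Leaving out 1 array gave between 1 (without the second Nfkbiz array) and 11 (without the first Nfkbiz array), with 3 and 8 without the first and the second luciferase array. The median difference of the members ran from -0.16 to 0.15, within the spread of the array levels (SD 0.32).

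Of 266 values of the 16 members given in full under the alternatives, 256 kept their sign and stayed short of the threshold, and 10 changed sign. Mcm3 became 0.64 with the most variable probe set. Leaving out 1 array moved Rrm2 from -0.26 to 0.56, below 0 without luciferase array 1 or 2 and without Nfkbiz array 2 or 3. It moved Mki67 from -0.096 to 1.02 and Top2a from -0.029 to 0.48, each below 0 without the second luciferase or the third Nfkbiz array and highest without the first Nfkbiz array. Pcna ran from -0.014 without the third to 0.27 without the first luciferase array.

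Same-numbered arrays did not deviate together (r between -0.06 and 0.07 across genes, which are not independent replicates), and 2 of 6 arrays correlated best with their own number, so the numbers were not taken as pairs. With the replicate block 0 members passed, 6 had an unadjusted p below 0.05, the members' median difference was -0.03, and 27 genes passed in place of 30. One limit is the spread within groups of 3 arrays (SD of the array levels 0.49 for the mitosis genes).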
